A study of Mus musculus with 8 samples.

Results

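The genes of MHC class II antigen presentation were taken as 10 named genes: Cd74, H2-Aa, H2-Ab1, H2-Eb1, H2-DMa, H2-DMb1, H2-DMb2, H2-Oa, H2-Ob and Ciita. Members were found by gene name among the probes of 8 one-colour microarrays, 10 of 34771 names on the array. They held 13 of 55681 probes: 2 for H2-Ab1, 3 for H2-Ob, 1 of which has another name in the array grid of the cells without IL-7, and 1 for each of the others. RNA came from 1676, a mouse line of pre-B cells. All cells shared an SLP-65-/- LAT-/- genotype, without these 2 signalling adaptors, a puromycin-selected retroviral vector and a history of growth in interleukin-7 (IL-7), a cytokine that keeps pre-B cells dividing. The groups were miR-125b cells, with a vector for the human microRNA hsa-miR-125b-1, cultured for 24 h without IL-7, control-vector cells cultured for 24 h without IL-7, miR-125b cells kept in IL-7, and control-vector cells kept in IL-7. Each of the 4 groups held 2 arrays, from repetitions with separately made clones of the line, so that the results describe 1 line in culture. Withdrawal of IL-7 was used, per the labels, to make the cells differentiate, and the comparisons ask whether miR-125b alters the RNA of the cells before and during that step.

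MHC class II molecules are pairs of an alpha and a beta chain that show peptides from the endosomal route to CD4 T cells. The invariant chain, encoded by Cd74, holds newly made pairs and guides them to endosomes, where H2-DM exchanges its remnant for peptide and H2-O, found mainly in B cells, restrains H2-DM. In mice most of these genes are switched on together by Ciita, a coactivator that joins the RFX, NF-Y and CREB proteins on the X and Y boxes of class II promoters, and their expression increases as B cells mature.

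The microRNA delivered by the vector is shown first, as its mouse mature form in RefSeq (GRCm38.p6, chr9:41581940-41581961, plus strand), with the seed in capitals. The arrays do not measure it.
mmu-miR-125b-5p: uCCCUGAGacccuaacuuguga

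Promoters of 250 bases before to 50 bases after the gene start (RefSeq, GRCm38.p6) were found for 7 of the 10 members, as 8 promoters; Cd74, H2-Ab1 and Ciita were not matched. They were searched on both strands for GATTGG, the core of the Y box, and for ANCNGATG, a run of letters within the X box. GATTGG lay in 7 of the 8 promoters, 1 for each gene, and not in the other H2-DMa promoter, against 16.1% of 32851 mouse promoters, and ANCNGATG lay in 9.33% of them. The motifs do not overlap: ANCNGATG followed by GATTGG at 8 to 40 bases, start to start, was present in the promoters of H2-DMb1, H2-DMb2 and H2-Eb1, at 30, 30 and 29 bases, against 29 of 32851 promoters (0.0883%). That spacing range was chosen after the spacing in the members had been seen. The stretches below, each of 60 bases on the strand of its gene, are printed because the RFX and NF-Y proteins described further on act at these boxes, and capitals mark the letters searched.
H2-DMb1 promoter (chr17:34153089-34153148, plus strand): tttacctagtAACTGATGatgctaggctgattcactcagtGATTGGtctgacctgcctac
H2-DMb2 promoter (chr17:34145118-34145177, plus strand): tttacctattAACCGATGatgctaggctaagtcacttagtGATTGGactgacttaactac
H2-Eb1 promoter (chr17:34305767-34305826, plus strand): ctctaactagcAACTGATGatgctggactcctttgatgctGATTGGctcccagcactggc
H2-Aa promoter (chr17:34287853-34287912, minus strand): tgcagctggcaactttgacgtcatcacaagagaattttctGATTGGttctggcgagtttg
H2-DMa promoter (chr17:34125279-34125338, plus strand): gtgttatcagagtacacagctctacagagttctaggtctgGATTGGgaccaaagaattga
H2-Oa promoter (chr17:34092295-34092354, plus strand): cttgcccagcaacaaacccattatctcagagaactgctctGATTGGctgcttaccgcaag
H2-Ob promoter (chr17:34238807-34238866, plus strand): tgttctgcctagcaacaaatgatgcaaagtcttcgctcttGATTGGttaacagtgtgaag
The match is a description of letters and shows no binding. In H2-Aa, H2-DMa, H2-Oa and H2-Ob the upstream letters were not found at that spacing within this window.

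The H2-Ab1 probes, shown because both are used for that gene, share 51 bases of which 50 are identical. The substitution is T51C, counted from the 5′ end of the first probe, and it is in capitals in the aligned 30 bases of each (mm9, chr17:34406326-34406355, plus strand).
H2-Ab1 probe 1: agattacaaataaacgagacTcagactctg
H2-Ab1 probe 2: agattacaaataaacgagacCcagactctg

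Values are log2 signals relative to the 75th percentile of the same array, so that 0 means a signal at that percentile. Between 47.7% and 54.8% of probes were well above background on an array, and the 75th percentile lay between 606 and 722 signal units on the arrays without IL-7 and between 325 and 379 on those with IL-7. The arrays without IL-7 shared 1 slide, scanned apart from the slide that held those with IL-7, so that withdrawal and the slide or its scan cannot be told apart. On both slides the miR-125b arrays lay in columns 3 or 4 and the control arrays in columns 1 or 2, so that vector cannot be told apart from position. Differences were tested in limma over 20674 genes, and called where the p adjusted by Benjamini-Hochberg was under 0.05. Another scaling moved all genes together. The median difference over all genes between miR-125b and control cells was −0.01 without IL-7 and −0.04 with IL-7, against 0.17 and 0.06 when each array was scaled to its median. For withdrawal it was −0.11 in miR-125b cells and −0.13 in control cells, against −0.36 and −0.46 with median scaling. The share of calls that were higher was 45.9% for miR-125b without IL-7, 43.6% with IL-7 and 45.9% in their average, against 78.3%, 61.6% and 77.2% with median scaling. On withdrawal it was 38.7% in miR-125b cells and 36.9% in control cells, against 21.6% and 16.7% with median scaling, and 24.9% and 25.2% with normexp background correction.

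Of the 10 members, 9 had a probe well above background on all 8 arrays and were tested. H2-DMb2, the second H2-DM beta gene, was well above background on none of the arrays and was not tested, and neither was the third H2-Ob probe. Without IL-7, 5 of the 9 tested members were lower in miR-125b cells than in control cells, namely Cd74, H2-Ab1, H2-DMa, H2-DMb1 and H2-Oa, and 0 were higher. Over all genes 3.49% were called lower in this comparison, 2.96% higher and 6.44% in either direction. H2-Aa and H2-Eb1 were below control on both arrays without passing the test, and H2-Ob differed by 0.03. The median difference of the 9 was −0.90, against −0.01 over all genes. Leaving out any 1 of the 4 arrays without IL-7 leaves 1 array in a group, and no member's call held then. Most calls over all genes were lost in these fits as well, so that the loss is not particular to the members. With any 1 array left out the differences of the 5 called members lay between −2.45 and −0.60. Leaving out miR-125b replicate 1 or 2 with IL-7 left 5 called, and leaving out control replicate 1 or 2 with IL-7 left 3. The sign of the difference was below 0 for the 5 called members, H2-Aa, H2-Eb1 and Ciita in all 17 alternatives run.

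With IL-7, 1 of the 9 tested members was called, H2-Oa, which was lower in miR-125b cells. Over all genes 1.46% were called lower here and 2.58% in either direction. The median difference of the 9 members was 0.16, against −0.04 over all genes, and 6 of the 9 were above 0. With any 1 of the 8 arrays left out, 0 members were called.

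On withdrawal in miR-125b cells 4 members were called. H2-Ob was higher without IL-7, while H2-Eb1, H2-DMa and H2-DMb1 were lower. Of all genes 52.4% were called in this comparison, 20.3% higher and 32.1% lower, so that 4 of 9 is no larger a share than the background. The count was 2 without replicate 1 or 2 of the miR-125b arrays lacking IL-7, and 3 to 5 without any other array. On withdrawal in control cells 6 members were called and all 6 were higher, namely Cd74, H2-Aa, H2-Ab1, H2-DMa, H2-Oa and H2-Ob. Of all genes 54.2% were called here, 20% higher and 34.2% lower. The median difference of the 9 members was 0.71, against −0.13 over all genes. The count was 3 without control replicate 1 with IL-7 or control replicate 2 without IL-7, and 5 or 6 without any other array. With median scaling it was 3.

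**Figure D1:**
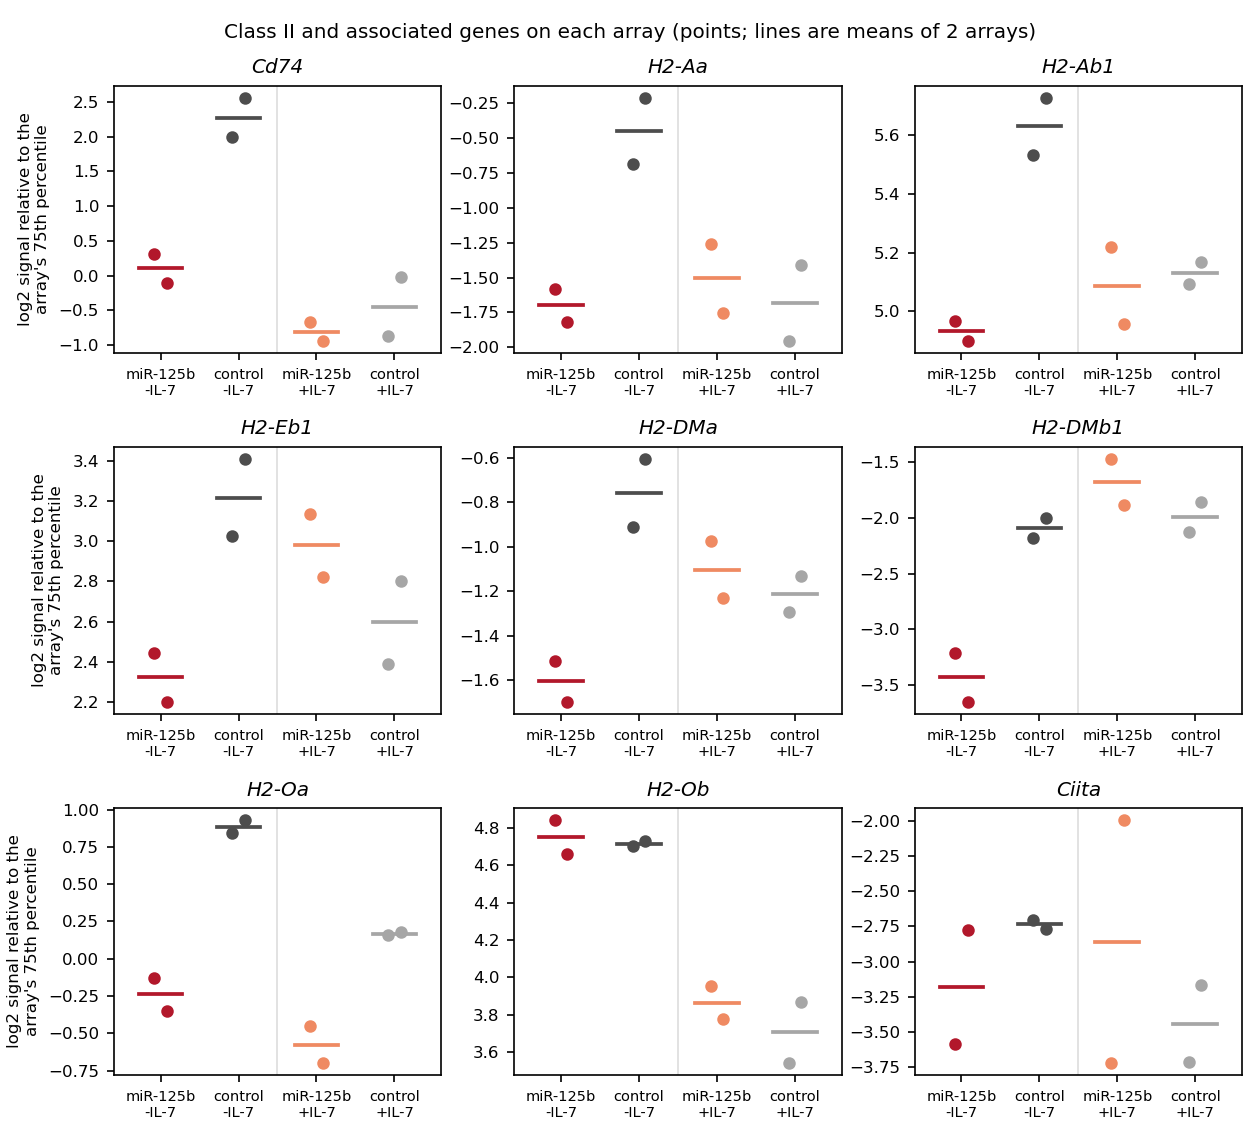
Log2 signal relative to the 75th percentile of each array (vertical axis, its range differs between panels) for the 9 tested members, with a point per array and a line at the mean of 2 arrays, for miR-125b and control cells without IL-7 (left) and with IL-7 (right). Cd74 lay at 1.99 and 2.55 in control cells without IL-7, above the other 6 arrays, while H2-DMb1 lay at −3.21 and −3.65 in miR-125b cells without IL-7, below the other 6.

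Cd74, the invariant chain, showed the largest difference among the members without IL-7 (probe in mm9 on chromosome 18 from 60972075 to 60972132). Without IL-7 its log2 level was 0.32 and −0.11 in miR-125b cells, against 1.99 and 2.55 in control cells. The groups did not overlap. In IL-7 the levels were −0.67 and −0.94 in miR-125b cells, against −0.87 and −0.02 in control cells, and these groups did overlap. Without IL-7 Cd74 was 4.49-fold lower in miR-125b cells (log2 difference −2.17, SE 0.34, adjusted p = 0.0277). Over the 17 alternatives this difference lay between −2.45 and −1.89 and was called in 10, but in none of the 4 fits that left out 1 of the arrays without IL-7. With IL-7 the log2 difference was −0.36 (SE 0.34, adjusted p = 0.591). Withdrawal in miR-125b cells gave a log2 difference of 0.91 (SE 0.34, adjusted p = 0.0661), which did not pass, whereas in control cells Cd74 was 6.58-fold higher without IL-7 (log2 difference 2.72, SE 0.34, adjusted p = 0.00218). These comparisons share arrays and are not independent of each other. The control-cell call held with any 1 of the 8 arrays left out.

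H2-Aa encodes the alpha chain of the I-A molecule (chromosome 17 from 34421285 to 34421344). Without IL-7 its log2 level was −1.58 and −1.82 in miR-125b cells, against −0.69 and −0.21 in control cells. The miR-125b arrays lay below both control arrays, yet the log2 difference of −1.25 (SE 0.27, adjusted p = 0.0561) did not pass. In IL-7 it was −1.26 and −1.75 in miR-125b cells, against −1.95 and −1.41 in control cells, with overlap. On withdrawal H2-Aa differed by −0.19 in miR-125b cells (SE 0.27, adjusted p = 0.577) and rose by 1.23 in control cells (SE 0.27, adjusted p = 0.0124). The control-cell call was lost without control replicate 1 with IL-7 or control replicate 2 without IL-7, and the value was at least 0.96 with any 1 array left out.

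H2-Ab1 encodes the beta chain of I-A and is read by 2 probes (chromosome 17 from 34406296 to 34406355 for the brighter one). Without IL-7 its log2 level was 4.97 and 4.90 in miR-125b cells, against 5.53 and 5.73 in control cells. Its level in IL-7 was 5.22 and 4.96 in miR-125b cells, against 5.09 and 5.17 in control cells. The groups were apart without IL-7 and overlapped with it. Without IL-7 the log2 difference was −0.70 (SE 0.12, adjusted p = 0.0323) with this probe and −0.78 (SE 0.10, adjusted p = 0.0233 over all 29807 kept probes) with the other. With IL-7 the differences were −0.04 and −0.14, and neither passed. On withdrawal H2-Ab1 differed by −0.15 in miR-125b cells (SE 0.12, adjusted p = 0.31) and rose by 0.50 in control cells (SE 0.12, adjusted p = 0.0154), and the other probe gave −0.27 and 0.37. The control-cell call was lost without control replicate 1 with IL-7 or control replicate 2 without IL-7, and with median scaling, where the value was 0.16.

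H2-Eb1 encodes the beta chain of the I-E molecule (chromosome 17 from 34453075 to 34453134). Without IL-7 its log2 level was 2.44 and 2.20 in miR-125b cells, against 3.03 and 3.41 in control cells. With IL-7 the order was the other way, at 3.14 and 2.82 in miR-125b cells, against 2.39 and 2.80 in control cells. Neither pair of groups overlapped, and neither difference passed: it was −0.90 without IL-7 (SE 0.21, adjusted p = 0.0668) and 0.38 with IL-7 (SE 0.21, adjusted p = 0.366). On withdrawal H2-Eb1 fell by 0.66 in miR-125b cells (SE 0.21, adjusted p = 0.0432) and differed by 0.62 in control cells (SE 0.21, adjusted p = 0.0501), just outside the threshold. The call in miR-125b cells was lost without any 1 of the 4 miR-125b arrays.

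H2-DMa and H2-DMb1 encode the chains of H2-DM, the exchange factor in endosomes (chromosome 17 from 34274300 to 34274863, and from 34297109 to 34297168). Without IL-7 the log2 level of H2-DMa was −1.51 and −1.70 in miR-125b cells, against −0.91 and −0.61 in control cells. In the presence of IL-7 it was −0.98 and −1.23 in miR-125b cells, against −1.29 and −1.13 in control cells. The groups overlapped with IL-7 and were apart without it, where H2-DMa was lower with miR-125b (log2 difference −0.85, SE 0.15, adjusted p = 0.0358). On withdrawal it fell by 0.50 in miR-125b cells (SE 0.15, adjusted p = 0.0353) and rose by 0.45 in control cells (SE 0.15, adjusted p = 0.0464). The opposite directions of these changes held in all 17 alternatives, while the calls held in 11 and 6 of them. Leaving out miR-125b replicate 1 with IL-7, or either miR-125b array without IL-7, ended the first, and 5 of the 8 arrays ended the second, namely both control arrays with IL-7, both miR-125b arrays without IL-7 and control replicate 2 without IL-7.

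For H2-DMb1 the miR-125b cells without IL-7 stood apart from the other groups. Its log2 level there was −3.21 and −3.65, against −2.18 and −2.0 in control cells without IL-7. Levels in IL-7 were −1.47 and −1.89 in miR-125b cells, against −2.12 and −1.86 in control cells, with overlap. Without IL-7 it was 2.54-fold lower with miR-125b (log2 difference −1.35, SE 0.21, adjusted p = 0.0277). On withdrawal it was 3.38-fold lower in miR-125b cells (log2 difference −1.76, SE 0.21, adjusted p = 0.00249), a call that held in all 17 alternatives. In control cells the difference was −0.10 (SE 0.21, adjusted p = 0.711).

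H2-Oa and H2-Ob encode the chains of H2-O, the partner that restrains H2-DM (chromosome 17 from 34232033 to 34232092, and from 34382790 to 34382849 for the brightest H2-Ob probe). Without IL-7 the log2 level of H2-Oa was −0.13 and −0.35 in miR-125b cells, against 0.84 and 0.93 in control cells. With IL-7 it was −0.45 and −0.70 in miR-125b cells, against 0.16 and 0.18 in control cells. The groups were apart in both media. H2-Oa was lower with miR-125b without IL-7 (log2 difference −1.12, SE 0.12, adjusted p = 0.0126) and with IL-7 (−0.75, SE 0.12, adjusted p = 0.043). With 1 array left out the difference in IL-7 lay between −0.87 and −0.62 and was not called, at an adjusted p of up to 0.159. Averaged over IL-7 the difference was −0.93 (SE 0.08, adjusted p = 0.00415) and was called in all 16 alternatives run. On withdrawal H2-Oa differed by 0.34 in miR-125b cells (SE 0.12, adjusted p = 0.0551) and rose by 0.72 in control cells (SE 0.12, adjusted p = 0.0046).

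H2-Ob did not follow its partner. Without IL-7 its log2 level was 4.84 and 4.66 in miR-125b cells, against 4.70 and 4.73 in control cells. In IL-7 its level was 3.95 and 3.78 in miR-125b cells, against 3.54 and 3.87 in control cells. The vectors overlapped in both media, whereas the arrays without IL-7 lay above those with IL-7 throughout. The log2 difference with miR-125b was 0.03 without IL-7 (SE 0.14, adjusted p = 0.907) and 0.16 with IL-7 (SE 0.14, adjusted p = 0.555). On withdrawal H2-Ob rose by 0.88 in miR-125b cells (SE 0.14, adjusted p = 0.00438) and by 1.01 in control cells (SE 0.14, adjusted p = 0.00264). A second H2-Ob probe (from 34380481 to 34380849) gave 0.94 and 1.00, and both calls held in all 17 alternatives.

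Ciita, the coactivator of the class II genes, had a dim probe and the widest spread between replicates (chromosome 16). Without IL-7 its log2 level was −3.59 and −2.77 in miR-125b cells, against −2.70 and −2.77 in control cells. With IL-7 it was −3.72 and −1.99 in miR-125b cells, against −3.71 and −3.17 in control cells. The 2 miR-125b arrays with IL-7 span the whole range of the 8 arrays. The log2 difference with miR-125b was −0.45 without IL-7 (SE 0.59, adjusted p = 0.687) and 0.58 with IL-7 (SE 0.59, adjusted p = 0.617). On withdrawal it was −0.32 in miR-125b cells (SE 0.59, adjusted p = 0.665) and 0.71 in control cells (SE 0.59, adjusted p = 0.343).

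The difference of the withdrawal response between miR-125b and control cells was tested directly. An offset shared by all arrays of a slide cancels in it. For the 9 tested members the response was smaller, or more negative, in miR-125b cells in every case, at a median of −1.03 on the log2 scale, against 0.02 over all genes. The limma fit called 0 of 9 members and 0% of all 20674 genes. At an unadjusted p under 0.05 there were 6 of 9 members and 5.89% of all genes. H2-DMb1 had the smallest p, at −1.66 (SE 0.30, adjusted p = 0.48). Cd74 differed by −1.81 (SE 0.48, adjusted p = 0.615) and H2-Aa by −1.42 (SE 0.39, adjusted p = 0.631). H2-Eb1 differed by −1.28 (SE 0.30), H2-DMa by −0.95 (SE 0.21), H2-Ab1 by −0.65 (SE 0.17), H2-Oa by −0.38 (SE 0.17), H2-Ob by −0.12 (SE 0.19) and Ciita by −1.03 (SE 0.83). In the alternatives run 0 members were called, and the sign stayed below 0 for all but H2-Ob, which was at 0.04 without control replicate 1 with IL-7. In simulated data at this number of arrays, 200 of 20674 genes were changed by 1 on the log2 scale. The test of the difference of the withdrawal response found 0% of them. Averaged over IL-7, miR-125b cells were lower than control cells for 3 of 9 members, Cd74 (−1.26, SE 0.24, adjusted p = 0.0235), H2-Ab1 (−0.37, SE 0.08, adjusted p = 0.0372) and H2-Oa, against 15.8% of all genes called, 8.55% lower and 7.26% higher. Without any 1 of the 4 arrays lacking IL-7, or without miR-125b replicate 2 with IL-7, that count was 1, H2-Oa.

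**Figure D2:**
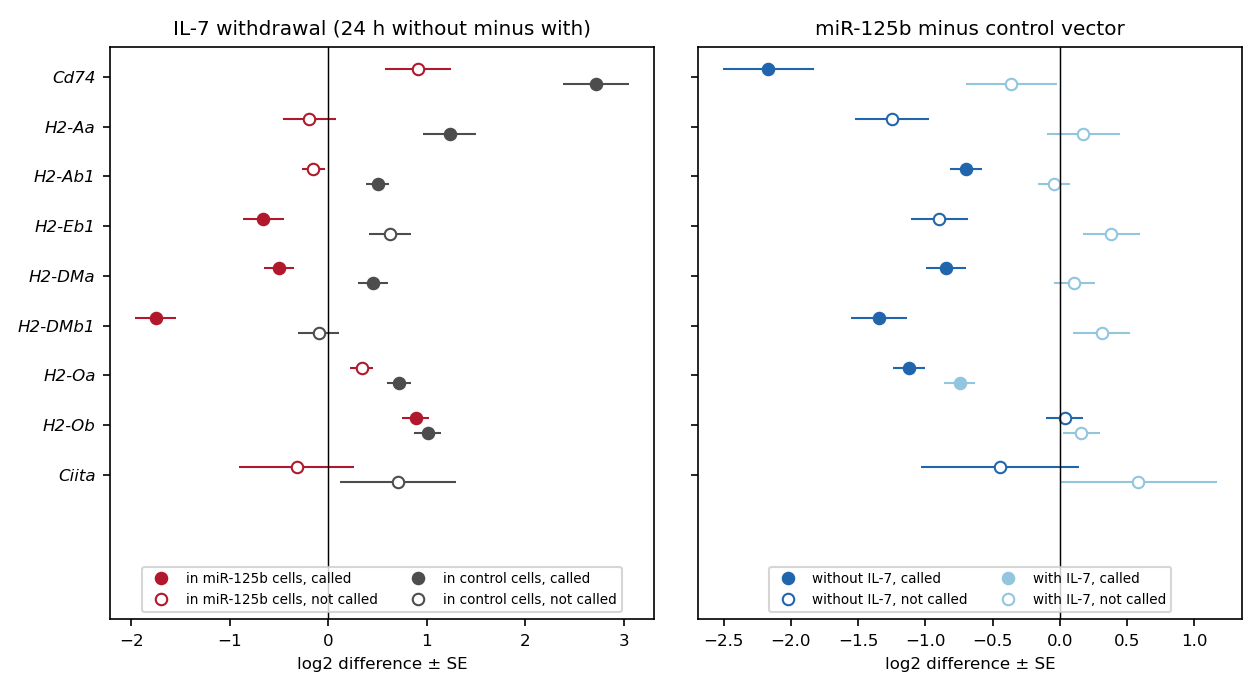
Log2 differences with their standard errors (horizontal axis) for each tested member. The left panel shows IL-7 withdrawal in miR-125b cells (upper point of each pair) and in control cells (lower point), and the right panel shows miR-125b minus control without IL-7 (upper) and with IL-7 (lower); filled points passed an adjusted p of 0.05. For all 9 members the miR-125b cell point of the left panel lies left of the control-cell point.

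The proteins that assemble with Ciita on class II promoters were read from a list of 7 genes, all tested. Without IL-7, 2 of 7 were lower in miR-125b cells and 0 were higher, at a median of −0.29. Over all genes 3.49% were called lower and 2.96% higher, at a median of −0.01. Rfxank, an RFX subunit, had log2 levels of 1.69 and 1.73 in miR-125b cells, against 2.32 and 2.40 in control cells (log2 difference −0.65, SE 0.07, adjusted p = 0.013). Nfya, an NF-Y subunit, fell by 0.51 (adjusted p = 0.0341). With IL-7 Rfxank was 1.71 and 1.77 in miR-125b cells, against 2.22 and 2.25 in control cells, and it was the 1 of 7 called (−0.50, adjusted p = 0.0359). Of all genes 1.46% were called lower with IL-7, and 8.55% in the average over IL-7. Averaged over IL-7, Rfxank (−0.57), Nfya (−0.49) and Nfyb (−0.30) were lower, and the calls of Rfxank and Nfya held without any 1 of the 8 arrays, whereas that of Nfyb was lost without 7 of the 8. The subunits Nfyc (0.21), Rfxap (0.13) and Nfyb (−0.30), and Creb1 (−0.05), did not pass without IL-7. Neither did Rfx5, another RFX subunit, at log2 levels of −1.93 and −2.03 in miR-125b cells, against −1.51 and −1.87 in control cells. On withdrawal Rfx5 rose by 0.96 in miR-125b cells and by 0.97 in control cells, and Creb1 by 0.51 and 0.53. Nfyb rose in control cells (0.25, SE 0.08, adjusted p = 0.0421 in limma), a call that held in 6 of 17 alternatives. In miR-125b cells Nfyb did not pass (0.24, adjusted p = 0.052 in limma). That made 2 of 7 higher in miR-125b cells and 3 of 7 in control cells, against 20.3% and 20% of all genes. In each comparison of the vectors within 1 medium, the calls in this list were lost without any 1 of the 4 arrays compared.

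The regulators named for Ciita in B cells were 12 genes, all tested. Between the vectors limma called 2 of the 12 without IL-7, 1 lower and 1 higher, against 6.44% of all genes. Without IL-7, Irf1, a transcription factor of the interferon response, was lower in miR-125b cells at 3.84 and 3.82, against 4.48 and 4.5 in control cells (−0.66, SE 0.07, adjusted p = 0.0116). Myc, a growth regulator that IL-7 sustains, was higher at 2.35 and 2.63 in miR-125b cells, against 0.96 and 1.1 in control cells (1.46, SE 0.25, adjusted p = 0.0335). Both calls were lost without any 1 of the 4 arrays without IL-7. With IL-7 limma called 0 of 12, against 2.58% of all genes, and Irf8 (−0.02), Tcf3 (−0.16), Ebf1 (−0.01) and Foxo1 (0.04) are the brightest of the 12. Averaged over IL-7, Irf1 (−0.51) and Zfp36l1 (−0.40) were lower and Myc (1.13) was higher, 3 of 12, against 15.8% of all genes called. The averaged call of Irf1 held without any 1 of the 8 arrays, that of Myc was lost without miR-125b replicate 2 or control replicate 1 lacking IL-7, and that of Zfp36l1 was lost without any array but miR-125b replicate 1 or control replicate 1 with IL-7. On withdrawal 9 of 12 were called in both kinds of cell, with the same direction for each gene, against 52.4% of all genes in miR-125b cells and 54.2% in control cells. Of the 9, 8 were higher and 1 lower in each kind of cell, while 20.3% and 20% of all genes were called higher. Irf4, a factor of late pre-B and plasma cells, rose by 1.40 in miR-125b cells and by 1.53 in control cells, and Pax5, the B-lineage factor, by 0.87 and 0.79. Irf1, Ebf1, Prdm1, Foxo1 and Zfp36l1 also rose, by 0.23 to 0.54 in miR-125b cells and 0.36 to 0.56 in control cells, and Myc fell by 1.45 and 2.11. Without any 1 of the 8 arrays the calls of Irf4, Pax5 and Myc held in both kinds of cell, while that of Irf1 in miR-125b cells was lost without 6 of the 8. With median scaling Irf1 was at −0.02 in miR-125b cells. In limma the difference of the withdrawal response was called for 0 of the 12, 0 of the 7 that assemble with Ciita, and 0 of all genes, as above.

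Of 13 genes for peptide loading and turnover 10 were tested, and limma called 0 of them between the vectors in either medium. Of all genes 6.44% were called without IL-7 and 2.58% with IL-7, so that 0 of 10 is near the background. The median difference of the 10 was 0.15 without IL-7 and 0.13 with IL-7. Averaged over IL-7, Ctss, the protease that trims the invariant chain, was lower in miR-125b cells (−0.41, adjusted p = 0.032) and Lgmn, an endosomal protease, higher (0.68, adjusted p = 0.0136). Of all genes 15.8% were called in that average. Ctss levels were 2.05 and 1.96 in miR-125b cells without IL-7, against 2.26 and 2.55 in control cells, and the call was lost without any array but miR-125b replicate 1 with IL-7 and control replicate 1 without IL-7. On withdrawal Ctss rose by 0.56 in miR-125b cells and by 0.53 in control cells, whereas the proteases Ctsz (−0.64 and −0.53) and Ctsd (−0.36 and −0.39) fell, as did Marchf1 (−0.74 and −0.92), a ligase that removes class II from the cell surface. Ifi30, a thiol reductase, fell in miR-125b cells (−0.45). H2-Ea, the alpha chain of I-E and no member of the 10, rose in control cells (1.20, SE 0.31, adjusted p = 0.0208) with levels of −3.12 and −3.56 in miR-125b cells without IL-7, against −2.81 and −1.94 in control cells. Withdrawal calls numbered 5 of 10 in each kind of cell, against 52.4% of all genes in miR-125b cells and 54.2% in control cells. In both kinds of cell the withdrawal call of Ctsz held without any 1 of the 8 arrays, and those of the others in this list did not.

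The class I pathway, which presents peptides from the cytosol, was read from 13 genes, all tested, for comparison. Between the vectors limma called 2.58% of all genes with IL-7 and 6.44% without, so that few calls are to be looked for in 13 genes. With IL-7 it called 0 of 13, and without IL-7 only Nlrc5, the class I counterpart of Ciita, was called. It was higher in miR-125b cells at 3.74 and 3.65, against 3.31 and 3.33 in control cells (0.37, SE 0.07, adjusted p = 0.0447), a call lost without any 1 of the 8 arrays. The class I chains did not pass without IL-7, at −0.05 for B2m, −0.24 for H2-K1 and −0.12 for H2-D1. Averaged over IL-7, Nlrc5 (0.39) and Calr (0.50), a chaperone of class I, were higher, 2 of 13, against 7.26% of all genes called higher. The averaged call of Nlrc5 held without any 1 of the 8 arrays, and that of Calr was lost without any array lacking IL-7 and without miR-125b replicate 2 with IL-7. On withdrawal Nlrc5 rose by 0.30 in miR-125b cells and by 0.34 in control cells. The immunoproteasome subunits Psmb8 (−0.51 and −0.55), Psmb9 (−0.46 and −0.48) and Psmb10 (−0.37 and −0.36) fell, as did Calr (−0.67 and −0.89) and Pdia3 (−0.67 and −0.55), and Tap2 fell in miR-125b cells (−0.31). That made 6 of 13 lower in miR-125b cells and 5 of 13 in control cells, against 32.1% and 34.2% of all genes. The call of Tap2 was lost without any array but miR-125b replicate 1 with IL-7 and in 11 of the 17 alternatives in all, and its value was −0.01 in the authors' deposited table. Those of Psmb8 and Psmb9 held in both kinds of cell without any 1 of the 8 arrays. Psmb10 was at 0.03 and 0.02 in the authors' deposited table. These lists were compared with the members by their counts and medians only, and no test of a difference between lists was made.

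**Figure D3:**
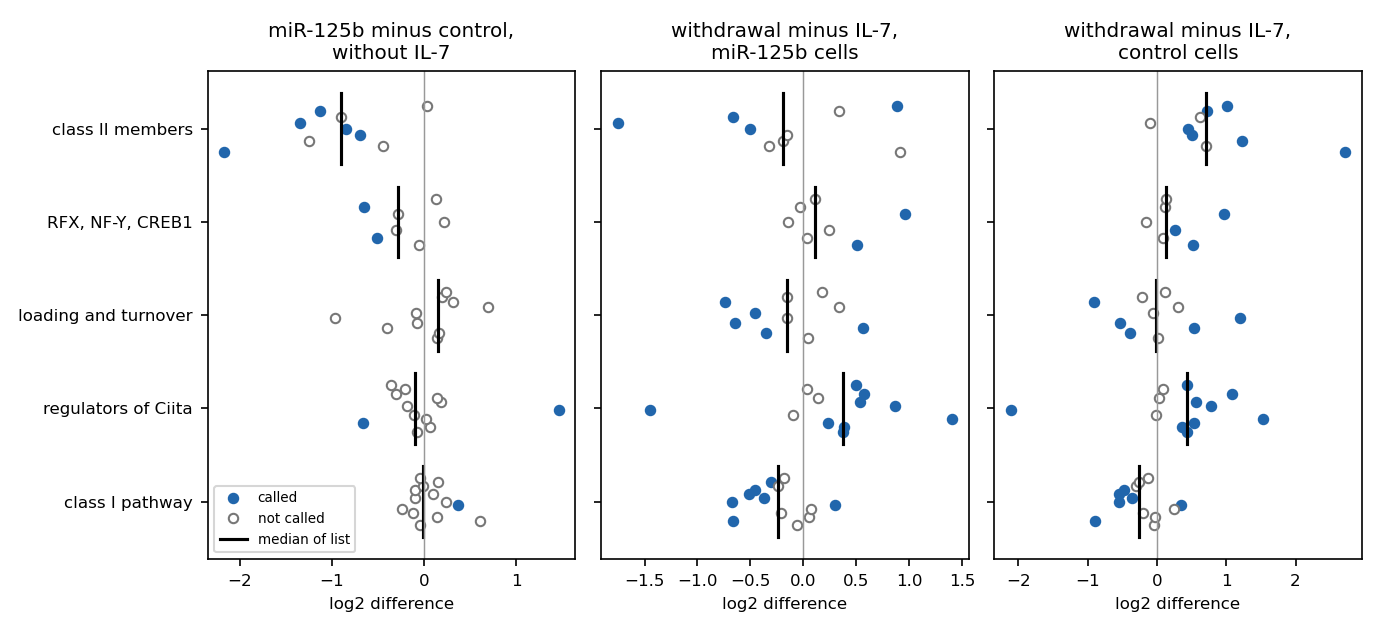
Log2 differences (horizontal axis) of the 9 tested class II members and of the genes of 4 pathway lists, for miR-125b minus control without IL-7 (left), withdrawal in miR-125b cells (middle) and withdrawal in control cells (right). Each point is 1 gene, filled where its adjusted p was under 0.05, and each bar is the median of its list, which for the members was −0.90, −0.19 and 0.71.

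Of the 9 tested members 7 lie in the class II region of chromosome 17, in which 5 other tested genes stand between them in RefSeq's order: Brd2, a chromatin reader, and Psmb9, Tap1, Psmb8 and Tap2 of the class I pathway. Without IL-7, 4 of the 7 members were lower in miR-125b cells and limma called 0 of the 5 others. Of all genes 3.49% were called lower and 6.44% in either direction. The members lay between −1.35 and 0.03 and the others between −0.12 and 0.16. With IL-7 the members lay between −0.75 and 0.38 and the others between −0.11 and 0.20, with 1 and 0 called. Of all genes 2.58% were called there. On withdrawal 4 of the 5 others fell in miR-125b cells, Tap2 with the call described above, and 3 in control cells, at medians of −0.35 and −0.31. Of all genes 32.1% were called lower in miR-125b cells and 34.2% in control cells. For the 7 members the medians were −0.19 in miR-125b cells and 0.62 in control cells.

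**Figure D4:**
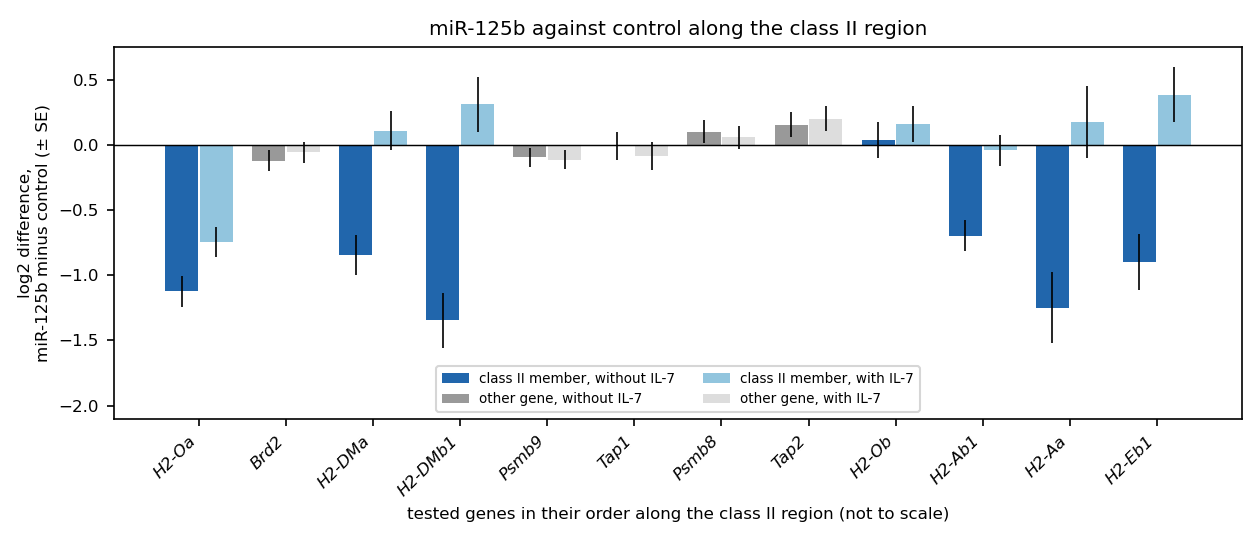
Log2 difference of miR-125b minus control (vertical axis, bars with standard errors) for 12 tested genes in their order along the class II region, without IL-7 (darker) and with IL-7 (lighter), with class II members in blue and other genes in grey. Without IL-7 the bars of the 5 other genes lie between −0.12 and 0.16, and 6 of the 7 members lie between −1.35 and −0.70.

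Cell type markers were read beside these results, since in bulk RNA a smaller share of cells that use a gene and less RNA per cell cannot be told apart. All 10 B-lineage markers were well above background on both arrays of every group, and their summed level, relative to the 75th percentile, was 1363 to 1380 in miR-125b cells and 1369 to 1389 in control cells without IL-7. With IL-7 it was 1646 to 1693 in miR-125b cells and 1667 to 1699 in control cells. The brightest of these markers were Vpreb1 and Cd79b, at log2 levels of 7.76 to 9.43. Of 13 myeloid and dendritic markers 5 or 6 were detected in each group. Their summed level was 259 to 286 in miR-125b cells and 283 to 288 in control cells without IL-7, and 298 to 325 and 327 to 360 with IL-7, and most of it came from Csf3r and Siglech, at log2 levels of 6.53 to 7.48. Among defining markers of dendritic cells, Itgax, Batf3, Xcr1 and Clec9a were not well above background on both arrays of any group. Zbtb46, another such marker, was detected in this way in 3 of the 4 groups, at a log2 level of −4.34 and −4.57 in miR-125b cells and −4.42 and −4.53 in control cells without IL-7, and fell on withdrawal in miR-125b cells (−1.18, adjusted p = 0.00221) and in control cells (−1.23, adjusted p = 0.00166). Limma called 0 of 8 tested myeloid and dendritic genes between the vectors in either medium, against 6.44% of all genes without IL-7 and 2.58% with IL-7. On withdrawal 2 of the 8, Zbtb46 and Siglech, were called lower in each kind of cell, and 1, Cd14, higher. Of all genes 32.1% were called lower in miR-125b cells and 34.2% in control cells. Cd14 was kept by the filter through the miR-125b arrays without IL-7 alone. Of 9 T- and NK-cell markers 4 or 5 were detected in each group, and 5 were tested. Their summed level was 8.38 to 8.79 in miR-125b cells and 8.37 to 8.54 in control cells without IL-7. Klrb1c, a receptor of NK cells, was lower without IL-7 at −2.43 and −2.39 in miR-125b cells, against −1.74 and −1.89 in control cells (−0.59, SE 0.10, adjusted p = 0.03), the same direction as the called class II members. Averaged over IL-7, Klrb1c (−0.44) and Cd4 (−0.26), a coreceptor of T cells, were lower. The part of such cells in the class II values was not tested.

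The likeness of patterns was described by Pearson's r over the 8 arrays, which share slides and scaling, so that no p is given. Over the members r with Cd74 was 0.905 for H2-Aa, 0.874 for H2-Oa, 0.847 for H2-Ab1, 0.733 for H2-Ob, 0.610 for H2-DMa, 0.558 for H2-Eb1, 0.225 for Ciita and −0.0356 for H2-DMb1. Among 4624 named genes with a range of at least 1 on the log2 scale, those most like Cd74 were Adam22 (0.980), Nfkb2 (0.979), Sgk1 (0.977), Naip6 (0.975) and Itgb3 (0.969). With normexp background correction Adam22 was at 0.198 and the other 4 at 0.977 to 0.990. Nfkb2, a subunit of NF-kappaB, differed by −0.83 between miR-125b and control cells without IL-7, and Itgb3, an integrin chain, by −2.30. Those most like H2-Ab1 were Mdfi (0.957), H2-Aa (0.952), H2-DMa (0.916), Arhgef10l (0.910) and Tob1 (0.907), among 4625 genes, so that 2 of the 5 were members. With normexp these were at 0.547, 0.953, 0.653, 0.791 and 0.903.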

How the data were processed

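RNA of 8 samples was hybridised in 1 colour to Agilent 60-mer arrays. Per the file headers, the scanner files hold a processed signal, a linear intensity with the background subtracted and no normalization between arrays, made with Agilent Feature Extraction 10.7.3.1 for the slide with IL-7 and 10.7.1.1 for the slide without. The submitters' processing notes name 10.7.1.1. Per the file headers the mean signal and local background are intensities as well, and other columns mark spots as above background, saturated or uneven. The authors also deposited normalized intensity values on a linear scale, used as an alternative.

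Of 62976 spots 3671 were controls, and 58 probes of uneven spots were dropped. Log2 signals were centred on the 75th percentile of each array. Probes kept (29807) were well above background in both replicates of 1 group or more, and each of 20674 genes was read by its brightest kept probe. Names came from RefSeq accessions for 27209 probes, symbols for 3575 and synonyms for 564, and from the files for 24275. Group means were fitted over all arrays in limma 3.58.1 under R 4.3.3, which read the files through data.table (1.17.8), with 4 residual degrees of freedom, two-sided p and Benjamini-Hochberg adjustment over all genes. The number of arrays limits precision. In simulated data 200 of 20674 genes were changed by 1 on the log2 scale. Of these, 72% were found for miR-125b without IL-7, 74% with IL-7 and 86% averaged. For withdrawal 67% were found in miR-125b cells and 63.5% in control cells. In the real data many more genes were called on withdrawal, 52.4% and 54.2% of all. The simulated shares therefore do not measure how many real changes of that size were found. The members, lists and alternatives were chosen with earlier results of these data known. All members are named, and of each list the called genes and up to 4 of the brightest others. Likeness was ranked over 8 arrays, with 5 genes each for Cd74 and H2-Ab1. Alternatives were median scaling, the authors' values, normexp, the filter on dim probes, a variance trend, all probes, a replicate block, only the arrays compared, and leaving out each array. Some listed genes and 1 probe sequence are not reported here. Columns of other series numbered 0.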

Additional observations from a re-analysis of the deposited data

How the results depend on the processing

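Precision is limited by 2 arrays a group, and dim probes such as Ciita lie near background. Over the alternatives other than leaving out an array, 400 member values kept their direction and side of the threshold, 38 lost and 26 gained a call, and 4 changed sign. Of the other listed genes reported here 444 did so, 82 lost a call and 4 changed sign. The cause of these changes was not tested.

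For miR-125b against control without IL-7, 5 members were called. The count was 3 with median scaling, 2 with no filter on dim probes, 1 with the replicate block and 1 with only the arrays compared, and 0 to 5 with 1 array left out. With IL-7 the count of 1 became 0 with median scaling, the authors' table, no filter, all kept probes, the replicate block or only the arrays compared, and 0 without any array. Averaged over IL-7 the count of 3 became 6 with normexp, 5 when probes had to be above background throughout and 5 with a variance trend, and 1 to 3 with 1 array left out. On withdrawal in miR-125b cells the count of 4 became 7 with normexp, 2 with no filter and 2 with the replicate block, and 2 to 5 with 1 array left out. In control cells the count of 6 became 3 with median scaling and 3 to 6 with 1 array left out. The difference of the withdrawal response stayed at 0 throughout. The counts over all genes moved as well. Averaged over IL-7, 3267 genes were called, against 4745 with normexp, 3899 with probes above background throughout and 4641 with a variance trend. On withdrawal in miR-125b cells 10839 were called, against 13127 with normexp, 8196 with no filter and 10082 with the replicate block. In control cells 11204 were called, against 12742 with median scaling. Deviations of replicate 1 from its group mean correlated between groups at −0.0980 to 0.113 over 20674 genes. The labels do not say whether replicate numbers pair the samples, and these correlations do not settle it. The replicate block is therefore an alternative, in which 1 member was called for miR-125b against control without IL-7.

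Over all genes, 1332 were called for miR-125b without IL-7, against 857 with median scaling, 2064 in the authors' table, 2659 with normexp, 607 with no filter, 2622 with a trend, 454 with the block and 496 with only the arrays compared, and 3 to 1138 with 1 array left out. With IL-7, 534 were called, against 216 with median scaling, 1 with no filter, 914 when probes had to be above background throughout, 1489 with a trend, 17 with the block and 0 with only the arrays compared, and 0 to 140 with 1 array left out. Averaged, 3267 were called, against 1403 with no filter, 2175 with the block and 994 to 2607 with 1 array left out. On withdrawal 7173 to 10705 were called in miR-125b cells, against 10839 with all arrays, and 7242 to 11076 in control cells, against 11204.

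Changes of sign were these. For miR-125b with IL-7, H2-Ab1 was at 0.053 with median scaling. Averaged over IL-7, Ciita was at −0.082 with normexp. On withdrawal in miR-125b cells Irf1 was at −0.017 with median scaling, and H2-Ab1 at 0.14 and Psmb10 at 0.027 in the authors' table. In control cells Nfyb was at −0.081 with median scaling, Psmb10 at 0.018 in the authors' table, and Ciita at −0.088 with normexp.

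With 1 array left out, uncalled members changed sign as follows. With IL-7, miR-125b against control ranged from −0.78 to 0.063 for Cd74, −0.10 to 0.45 for H2-Aa, −0.17 to 0.087 for H2-Ab1, −0.019 to 0.24 for H2-DMa, −0.0050 to 0.32 for H2-Ob and −0.28 to 1.45 for Ciita. Without IL-7 it ranged from −0.055 to 0.12 for H2-Ob, and averaged over IL-7 from −0.36 to 0.50 for Ciita. Withdrawal ranged from −0.44 to 0.055 for H2-Aa and −1.19 to 0.54 for Ciita in miR-125b cells, and from −0.23 to 0.034 for H2-DMb1 in control cells. The difference of the withdrawal response ranged from −0.29 to 0.040 for H2-Ob.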

Other observations

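Genes of mature B cells were read from a list of 11, of which 10 were tested. On withdrawal of IL-7, 6 of 10 rose in miR-125b cells and 8 of 10 in control cells and 0 fell, against 20.3% and 20% of all genes called higher. These counts include Ms4a1 and Cd40, which passed the filter on dim probes through the groups without IL-7 alone, so that their withdrawal calls were favoured by the filter. Ccr7, the receptor that guides lymphocytes to lymph nodes, rose by 2.18 in miR-125b cells and by 2.43 in control cells, and Cd38, a surface enzyme, by 2.16 and 1.82. Without IL-7, 1 of 10 differed between the vectors, against 6.44% of all genes. Cd69, an early activation marker, had log2 levels of −0.47 and −0.42 in miR-125b cells, against 0.67 and 0.68 in control cells (−1.12, SE 0.13, adjusted p = 0.0146 in limma). With IL-7, 1 of 10 was called, against 2.58% of all genes, namely Cr2, the complement receptor of B cells, which was higher in miR-125b cells (0.77, adjusted p = 0.0399). With 1 call of 10 in each medium, no trait of the list is read from them.

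Ms4a1, which encodes the B-cell surface protein CD20, was at −3.71 and −3.91 in miR-125b cells without IL-7, against −2.65 and −0.52 in control cells without IL-7. With IL-7 it was not well above background on any array, and it was at least 2.22-fold higher without IL-7 in miR-125b cells and at least 9.44-fold higher in control cells, where the replicates lay far apart. No p is given, since the filter kept this gene through the groups in which it was high. These bounds are measured against the lowest signals well above background on the dim arrays. The costimulatory receptor Cd40 was at −1.60 and −2.22 in miR-125b cells, against −0.33 and 0.16 in control cells without IL-7. Without IL-7 neither passed the test between the vectors (adjusted p = 0.101 and 0.228). Cd8a, a coreceptor of T cells, was at 1.61 and 1.69 in miR-125b cells and at 1.63 and 1.53 in control cells without IL-7, and was not well above background on any array with IL-7, a difference of at least 97.8-fold in miR-125b cells and at least 84.7-fold in control cells. It too was kept by the filter through the groups without IL-7 alone, and no p is given. Cd3e, part of the T-cell receptor complex, fell in both kinds of cell, by 1.52 and 1.44. The part of the slide in these values cannot be told apart from that of withdrawal. The genes named in this part were picked from their lists after their values were seen.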
